A study of Rattus norvegicus with 36 samples.

Results

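The serotonin receptors described here are 10 genes, Htr1a, Htr1b, Htr1d, Htr2a, Htr2c, Htr3a, Htr4, Htr5a, Htr6 and Htr7. They were chosen by name, and all 10 had a row among the 20603 genes of the deposited table. RNA came from frozen hippocampus of female rats, with 36 samples in 6 labelled groups of 6 animals each. Regularly cycling animals were 6 months old (Reg6m) or 9 months old (Reg9m). Other animals of 9 months had irregular cycles (Irreg9m) or had stopped cycling (Acyc9m). Acyclic animals of 16 months formed Acyc16m. In RegOVX10m the ovaries had been removed at 9 months of age, and tissue was taken at 10 months. The columns of the table carry the tissue and a running number that no label holds. The 36 libraries were therefore described as a single set, with no comparison between ages, cycle states or surgery. A difference between the groups that 2 genes share would appear here as a correlation between them. Libraries are called by their column number.

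Serotonin reaches the hippocampus along fibres from the raphe nuclei, whose neurons make the transmitter, and acts there on receptors of several families. Htr1 and Htr5 receptors couple to Gi/o proteins and Htr2 receptors to Gq proteins, while Htr4, Htr6 and Htr7 couple to Gs proteins and raise cAMP. Htr3a encodes a subunit of a serotonin-gated ion channel and marks interneurons that arise in the caudal ganglionic eminence. In bulk tissue, fewer cells of a type and less RNA per cell cannot be told apart.

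The depth of each library is unknown: after scaling by the authors the column totals ran from 34455978 to 35985904 normalised counts, which are not depths. Library 30 listed 2621 genes at 0, against 1887 to 2120 in the others. Its 100 lowest non-zero values had a median of 1.94, against 0.865 to 1.06 elsewhere. A principal component analysis was made of the 15837 genes with a median of at least 10. Its first 2 components held 8.28% and 7.08% of the variance, and separate clusters on them were not tested for. Scores on the second went with column number: libraries 1 to 7 ran from -10.98 to -4.95, while most of libraries 15 to 36 were positive. The cause was not tested. Library 17 stood apart on the second, with a score of 27.5 against -11.0 to 13.9 in the others. On the first component it had the highest score, 20.49, and library 2 had the lowest, -18.68. Library 17 had the highest summed level of the 5 oligodendrocyte markers, 325865 against 116638 to 208454. It also had the highest thalamus sum, 2352 against 1597 to 2138, and the highest neocortex sum, 5323 against 2223 to 3573. The neocortex list was not uniform: library 17 was far highest for Tshz2 (3229 against at most 1497) but lowest for Fezf2 (763). Of the 6 thalamus markers library 17 was highest for 3, but for Rgs16 it was below the median, at 260 against 271.7. For 7 of the 9 caudal interneuron markers library 17 held the lowest value, but for Lamp5 it held the highest (1604). Markers of hippocampal fields had very different values, also within a list. Prox1 of the dentate granule cells had 3301 to 5722 and Wfs1 of CA1 had 6799 to 18360. In the CA2 list Rgs14 had 3319 to 5710 and Map3k15, the lowest of that list, had 7.86 to 35.6. Iyd of the CA3 list, at 0.996 to 12.4 with a median of 5.04, was near the limit of detection and enters that list's mean.

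Of the 10 receptor genes, 9 were clearly measured in all 36 libraries, and Htr1d was near 0. Counts of reads grow with transcript length, and the sources used here do not say whether the deposited scaling corrects for it, so values of different receptors are given side by side and not as an order of expression. Among the Gi/o-coupled receptors, Htr1a, the receptor of pyramidal and granule cells that opens potassium channels, had 753 normalised counts in its lowest library, a median of 1043 and a highest value of 1234. Its median exceeded those of 69.3% of the genes in the table. Htr1b, which on nerve endings reduces transmitter release, ranged from 282.5 through a median of 380.9 to 532.8. Htr1d, its close relative, was listed at 0 in 2 libraries, numbers 19 and 30, and had a median of 3.79 and a highest value of 8.77. Those values are a few times the lowest non-zero values of the libraries, so Htr1d varied near the limit of detection. Htr5a, the remaining Gi/o-coupled receptor, ranged from 155.3 through 207.8 to 260.

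The Gq-coupled receptors had the widest ranges of the 9 genes. Htr2c, which is also abundant in choroid plexus, had 969.9 normalised counts in library 17, a median of 2738 and a highest value of 4587 in library 2. Library 17 was the lowest, the next was library 11 at 1514, and the highest value was 4.73 times the lowest. Htr2a, the main cortical target of hallucinogens, had 132 in library 17, a median of 361.6 and 533.5 in library 25. Library 11 was again second lowest, at 210. The channel subunit gene Htr3a ranged from 90.1 in library 17 through 191.9 to 240.8 in library 2. Its lowest value elsewhere was 140.5, so library 17 lay well below the other 35 values of this gene.

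The Gs-coupled receptors had narrower full ranges than Htr2a, Htr2c and Htr3a. Htr7 ranged from 289 through 407.8 to 474.5, with library 17 lowest and library 2 highest. Htr4 ranged from 123 through 162.1 to 200.1. Htr6 ranged from 124.9 through 152.7 to 192.7. Library 17 held the lowest value of 5 of the 9 measured receptors (Htr1a, Htr2a, Htr2c, Htr3a and Htr7) and was among the 3 lowest for 8. Library 2 held the highest value of 5 (Htr1a, Htr2c, Htr3a, Htr5a and Htr7).

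**Figure D1:**
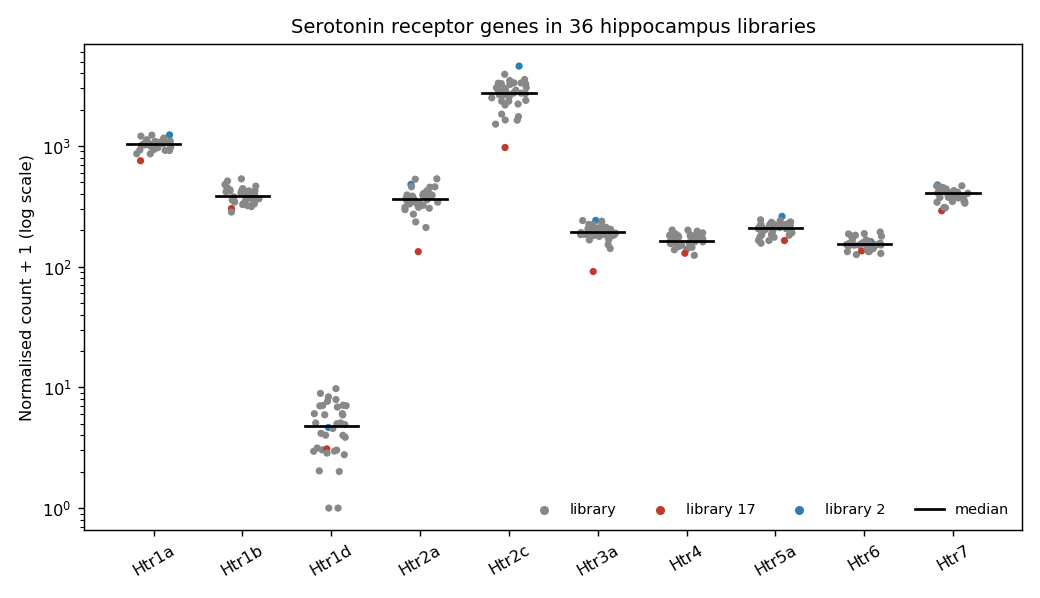
Normalised count plus 1 (log axis) of the 10 receptor genes in each of 36 hippocampus libraries, with the median as a bar. Htr2c spans 969.9 to 4587, Htr1d stays below 9, and library 17 (red) lies lowest for Htr1a, Htr2a, Htr2c, Htr3a and Htr7.

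Spread was taken on log2(normalised count + 1) as the interquartile range over the 36 libraries. Htr2c had an interquartile range of 0.46 log2 units, wider than in 99.6% of the 500 genes nearest to it in median. Htr2a had 0.32, wider than in 94.2% of its neighbours, and Htr1b had 0.30, wider than in 92.6%. Htr6 was among the least variable genes of its level, with 0.14, wider than in only 5.2% of its neighbours. Htr3a had a narrow middle and a long tail: its interquartile range was 0.18, whereas its full range of 1.41 exceeded that of 92.8% of its neighbours. Without library 17 that full range was 0.77. The interquartile ranges of the others were 0.15 for Htr1a, 0.19 for Htr4, 0.24 for Htr5a and 0.18 for Htr7.

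Several receptor genes varied together across the libraries, and the closest were Htr2a and Htr2c. The 9 measured receptors make 36 pairs. Pearson's r on log2(normalised count + 1) passed an adjusted p of 0.05 in 15 pairs, all positive (permutation test with 100000 resamples, two-sided, Benjamini-Hochberg over the 36 pairs). The weakest of these had r = 0.426. Among all 125397366 pairs of genes with a median of at least 10, 4.55% had an r at or above that value, against 41.7% of the receptor pairs. The receptor pairs share libraries and genes and are not independent of each other.

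All 10 pairs among Htr2a, Htr2c, Htr3a, Htr5a and Htr7 were among the 15, with r from 0.549 to 0.853 and adjusted p of at most 0.0016 (permutation test). These 5 genes were singled out after their values were seen. The closest pair was Htr2a with Htr2c, at r = 0.853 (p = 1e-05, the smallest the resamples can give, adjusted p = 6.0e-05) and Spearman's rho = 0.766 (p = 1e-05). Leaving out the 2 libraries farthest from the median of Htr2a gave r = 0.727. Htr2c with Htr3a had r = 0.798 and rho = 0.690, each with p = 1e-05, and r = 0.668 without the 2 farthest libraries. Htr2c also went with Htr5a (r = 0.735, rho = 0.725) and with Htr7 (r = 0.730, rho = 0.609). The permutation p was 1e-05 for these values except for the rho with Htr7, where it was 5.0e-05. Without the 2 farthest libraries r was 0.677 with Htr5a and 0.589 with Htr7.

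Library 17 was the lowest for 4 of these 5 genes, and each of the 10 values was smaller without it. The 10 pairs then had r from 0.486 to 0.775 with adjusted p of at most 0.0097 (permutation test), so all 10 still passed. When the mean of the oligodendrocyte markers was regressed out of both genes, r ran from 0.537 to 0.798 and all 10 passed again. Leaving out the 2 farthest libraries left 8 of the 10 past the threshold. The other 2 fell short of it: Htr2a with Htr5a had r = 0.3996 (adjusted p = 0.063) and Htr2a with Htr7 had r = 0.380 (adjusted p = 0.078). By Spearman's rho over all 36 libraries both passed, at 0.508 and 0.502 (adjusted p = 0.0072 and 0.0075, permutation test).

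**Figure D2:**
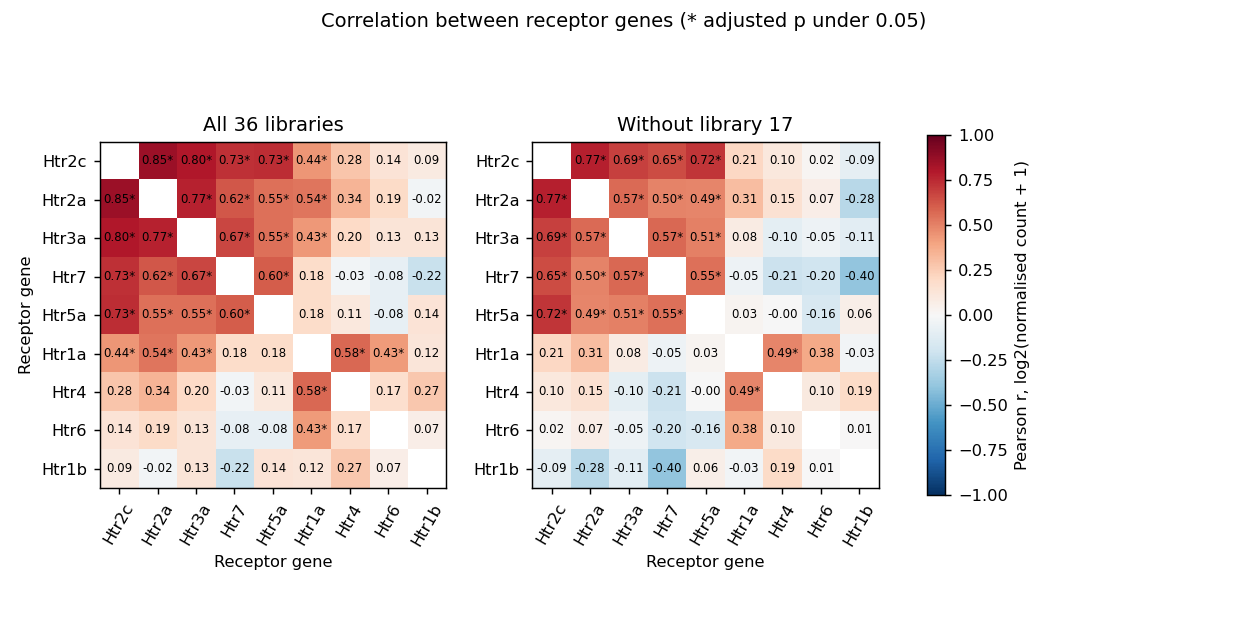
Pearson r between 9 receptor genes on log2(normalised count + 1), over all 36 libraries (left) and without library 17 (right), with an asterisk where the adjusted permutation p is under 0.05. Htr2c, Htr2a, Htr3a, Htr7 and Htr5a form a positive block in both panels, with Htr2a and Htr2c at 0.85 and 0.77, while the pairs of Htr1a with Htr2a, Htr2c and Htr3a lose the asterisk on the right.

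Promoter windows are shown for members of this block, as genes that varied together. The RefSeq table used (GRCr8) held a window, 250 bases before to 50 after the gene's start, for 6 of the 10 receptors, among them Htr2c, Htr5a and Htr7 of the 5. They lie at chrX:115452940-115453239 on the plus strand, chr4:8188436-8188735 on the minus strand and chr1:243172999-243173298 on the minus strand. They are shown 5′ to 3′ with CpG dinucleotides in capitals.
Htr2c: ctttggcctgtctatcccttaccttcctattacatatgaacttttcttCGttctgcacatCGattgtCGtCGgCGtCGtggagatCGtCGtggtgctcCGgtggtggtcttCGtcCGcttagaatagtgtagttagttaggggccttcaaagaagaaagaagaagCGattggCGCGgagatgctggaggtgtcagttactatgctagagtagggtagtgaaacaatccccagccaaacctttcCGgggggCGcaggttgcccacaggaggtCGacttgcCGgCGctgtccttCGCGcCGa
Htr5a: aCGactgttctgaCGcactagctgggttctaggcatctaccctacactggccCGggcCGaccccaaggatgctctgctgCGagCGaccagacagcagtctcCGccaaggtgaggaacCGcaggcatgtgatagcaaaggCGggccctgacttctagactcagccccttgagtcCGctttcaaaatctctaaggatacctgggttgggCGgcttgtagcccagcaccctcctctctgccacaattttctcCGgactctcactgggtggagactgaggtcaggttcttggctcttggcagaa
Htr7: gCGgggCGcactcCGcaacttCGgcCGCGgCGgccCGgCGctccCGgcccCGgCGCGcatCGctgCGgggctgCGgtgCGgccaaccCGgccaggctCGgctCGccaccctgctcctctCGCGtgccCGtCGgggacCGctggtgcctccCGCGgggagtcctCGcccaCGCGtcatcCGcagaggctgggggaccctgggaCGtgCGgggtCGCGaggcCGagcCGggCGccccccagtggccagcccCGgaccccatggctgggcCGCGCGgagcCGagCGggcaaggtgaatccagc

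The 3 windows differed in base composition. Htr7 had 44 CpG dinucleotides, more than 98.1% of all windows of this length, Htr2c had 22 and Htr5a had 12, while the median window had 7. GC content was 79.7% for Htr7, 58.0% for Htr5a and 53.7% for Htr2c. Neither strand held the TATA box TATAAA, the cAMP response element TGACGTCA or the E-box CACGTG in any of the 6 receptor windows. Those letters occurred in 14.2%, 1.8% and 6.4% of all 33469 windows. The Sp1 box GGGCGG was in the windows of Htr5a and Htr1d and in 33.1% of all windows. The nuclear receptor half-site AGGTCA was in that of Htr5a and in 16.2% of all. Neither the window of Htr2c nor that of Htr7 held any of the 5 motifs. A match is a description of letters and no binding was measured.

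Outside the block, Htr1a passed with 5 receptors, 3 of them members of the block. It correlated with Htr4, which raises cAMP in granule and pyramidal cells, at r = 0.577 (p = 2.9e-04, adjusted p = 0.0011, permutation test), and rho was 0.392 (p = 0.019, adjusted p = 0.052). This held without library 17 (r = 0.489, adjusted p = 0.0097) and without the 2 libraries farthest from the median of Htr1a (r = 0.436, adjusted p = 0.041). With the oligodendrocyte markers regressed out it did not pass, at r = 0.370 and adjusted p = 0.088. Htr1a also passed with Htr2a (r = 0.539), Htr2c (r = 0.440), Htr3a (r = 0.433) and Htr6 (r = 0.426). None of these 4 passed without library 17, where r was 0.308, 0.206, 0.084 and 0.375 (adjusted p from 0.074 to 0.84). Htr1b passed with no other receptor, its r running from -0.225 with Htr7 to 0.271 with Htr4. With the mean of the CA1 markers regressed out, an alternative chosen after seeing the data, 4 pairs of Htr1b passed, with Htr2a (r = 0.458), Htr2c (r = 0.508), Htr3a (r = 0.479) and Htr4 (r = 0.480).

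Each of the 10 was correlated with the mean level of 15 marker lists for hippocampal fields, cell types and neighbouring regions. Of the 150 pairs, 16 passed with positive and 19 with negative r (permutation test, Benjamini-Hochberg over the 150). This is 23.3% of the pairs. Of all pairs of a list and a gene with a median of at least 10, 7.98% had an r at least as far from 0 as the weakest of these, 0.421. The shares of all genes given below for single lists are also over these 15837 genes. Htr1d, which is among the 10, is below that minimum. Without the 2 libraries farthest from the receptor's median, 11 of the 35 still passed. Without library 17, 16 of the 35 still passed with the same sign, 10 positive and 9 negative pairs passed in all, and 3 of these had not passed before.

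Htr1b followed CA1, the pyramidal field whose cells carry this receptor on their endings. Its r with the 5 CA1 markers was 0.768 (p = 1e-05, adjusted p = 3.7e-04, permutation test) and rho was 0.719. It was 0.806 without library 17 and 0.749 without the 2 libraries farthest from the median of Htr1b. Of the single markers, Wfs1 had r = 0.726 with Htr1b, Pou3f1 had 0.643 and Man1a1 had 0.619. The scarce Htr1d gave r = 0.578 with the same list (adjusted p = 0.0022, permutation test), and rho was 0.664. Htr7 went the other way, at r = -0.438 (adjusted p = 0.035), which did not pass without the 2 farthest libraries (r = -0.418, adjusted p = 0.11), and r with the single CA1 markers ran from -0.530 for Wfs1 to 0.139 for Fibcd1. Across all genes, 6.12% had an r with the CA1 list of 0.421 or more and 3.33% one of -0.421 or less.

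The block of 5 receptors went with interneuron markers. All 5 passed with the medial interneuron list, which holds Pvalb, Sst, Lhx6, Nxph1 and Satb1, with r of 0.774 for Htr2c, 0.756 for Htr5a, 0.682 for Htr3a, 0.678 for Htr7 and 0.646 for Htr2a. Of all genes, 8.93% had an r of 0.421 or more with this list. Without library 17 the first 2 and Htr7 still passed, at 0.653, 0.763 and 0.581. Those of Htr3a (r = 0.420, adjusted p = 0.084) and Htr2a (r = 0.407, adjusted p = 0.089) did not. The list did not move as a unit: Htr2c had r = 0.784 with Nxph1, 0.783 with Lhx6 and 0.719 with Sst, but -0.123 with Pvalb and -0.071 with Satb1. Library 17 was lowest for Htr2c, Nxph1, Lhx6 and Sst, and these single-marker values are not given without it.

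With the caudal interneuron list 7 receptors passed, led by Htr3a (r = 0.749), Htr2c (r = 0.716) and Htr2a (r = 0.695). Only these 3 passed without library 17, at 0.499, 0.550 and 0.455. Without the 2 libraries farthest from the receptor's median, only Htr2c did, at 0.560, where Htr2a had 0.468 and Htr3a 0.435 (adjusted p = 0.062 and 0.096). Of all genes, 9.29% had an r of 0.421 or more with this list. Htr3a had r = 0.814 with Cnr1, the cannabinoid receptor of cholecystokinin interneurons, and 0.704 with Reln. With Lamp5 it had r = -0.540. Library 17 was lowest for Htr3a, Cnr1 and Reln and highest for Lamp5, and these single-marker values are not given without it. Htr5a alone passed with the striatum list (r = 0.543, adjusted p = 0.0048), and it did so without library 17 (r = 0.549). Members of that list went both ways with Htr5a, from 0.707 for Drd2 and 0.605 for Drd1 to -0.492 for Ppp1r1b.

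**Figure D3:**
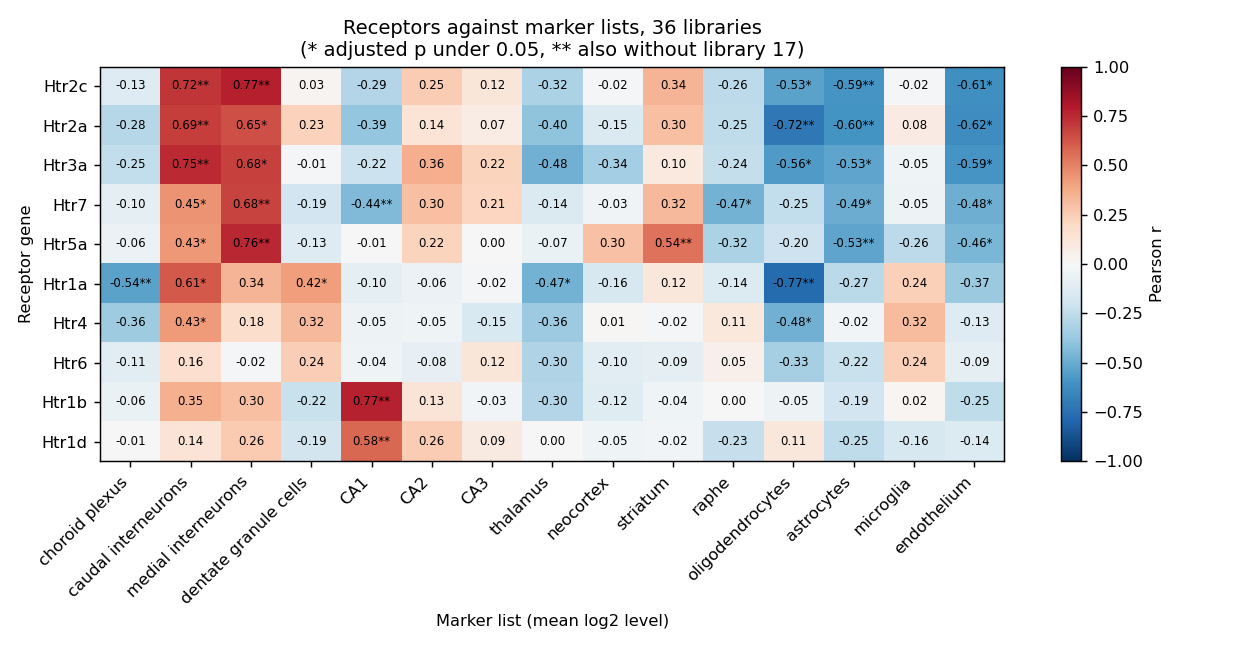
Pearson r of each receptor gene (rows) with the mean log2 level of each marker list (columns) over 36 libraries. Htr1b and Htr1d are highest with CA1 (0.77 and 0.58), Htr2c, Htr2a, Htr3a, Htr7 and Htr5a are positive with both interneuron lists, and Htr1a is lowest with oligodendrocytes (-0.77).

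The oligodendrocyte, astrocyte and endothelial lists each passed with 5 of the 10 receptors, all at negative r. Of all genes, 7.56%, 6.14% and 5.45% had an r of -0.421 or less with them. The microglia list passed with no receptor, its r running from -0.261 with Htr5a to 0.320 with Htr4, although Htr3a passed without library 17 (r = -0.465). Htr1a had the strongest negative value, r = -0.770 with the oligodendrocyte list (p = 1e-05, adjusted p = 3.7e-04, permutation test) and rho = -0.579. Its r was -0.662 without library 17 and -0.613 without the 2 libraries farthest from the median of Htr1a. Of the single markers, Mbp, the gene of myelin basic protein, had r = -0.759 with Htr1a and Mog had -0.742. Library 17 was lowest for Htr1a and highest for both markers, and these 2 values are not given without it. With the oligodendrocyte list Htr2a gave r = -0.716, and -0.506 without library 17 (adjusted p = 0.028). Htr2c, Htr3a and Htr4 also passed, but without library 17 their r was -0.259, -0.158 and -0.347, with adjusted p from 0.18 to 0.61. With the astrocyte list Htr2a, Htr2c and Htr5a still passed without library 17, at -0.487, -0.483 and -0.469. Without the 2 farthest libraries only Htr5a passed, at -0.514. The endothelial list had 2 genes with a row, Cldn5 and Flt1, and the 5 receptors that passed with this list all failed without library 17.

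Choroid plexus, in which Htr2c is abundant, had markers that varied between libraries. Of its 12 listed markers 11 had a row, their summed level ran from 160 through a median of 242 to 2222, with library 8 highest by the list's mean, and the transthyretin gene Ttr ran from 4.59 to 1699. Of the 11 markers, 7 had a median of at least 10, and the scarcer ones also enter the list's mean. Htr2c did not follow this list, with r = -0.133 in the set of 36. Htr1a did pass, at r = -0.538 (adjusted p = 0.012) and -0.542 without library 17, but not without the 2 farthest libraries (r = -0.431, adjusted p = 0.096). Of the raphe list 2 genes had a row, Slc6a4 and Tph2, with medians of 3.87 and 22.2. Htr7 went against this list, at r = -0.470 (adjusted p = 0.023), but not past the threshold without library 17 (r = -0.420, adjusted p = 0.084). Its r was -0.615 with Tph2 and -0.091 with Slc6a4.

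**Figure D4:**
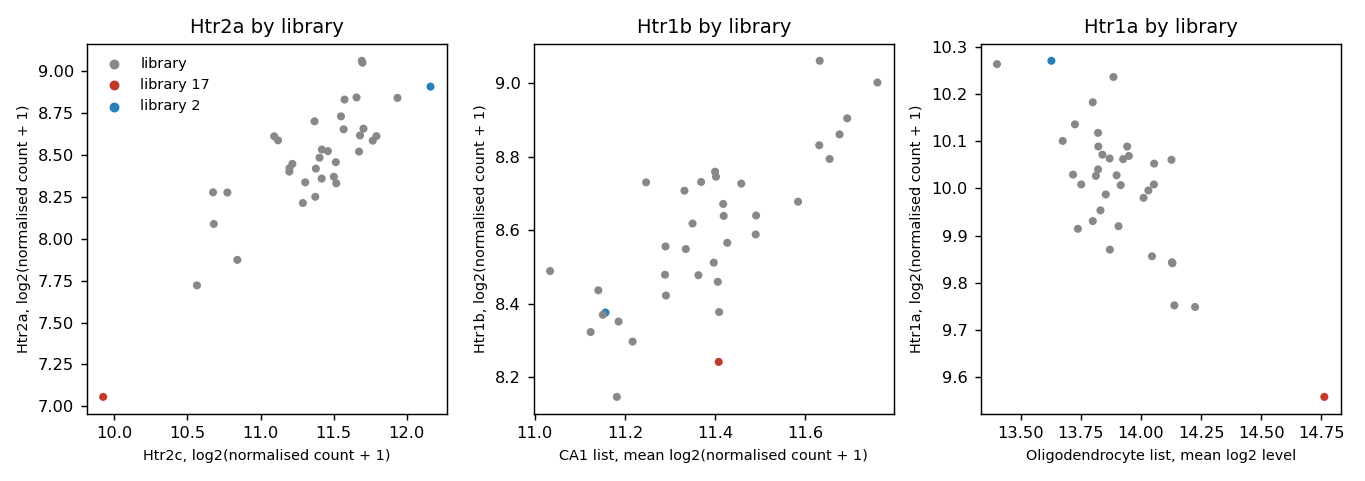
Each point is a library, on log2(normalised count + 1): Htr2a against Htr2c, Htr1b against the mean of the CA1 list, and Htr1a against the mean of the oligodendrocyte list. The r values are 0.853, 0.768 and -0.770, library 2 is blue, and library 17 (red) lies at the end of the first and the third but off the line of the second.

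For each measured receptor, the genes most like it were taken as the 5 with the highest r among the 15837 genes with a median of at least 10, over the 36 libraries and as a description only. Htr2c was most like Tacr3, the receptor of neurokinin B, at r = 0.935 (0.910 without library 17), and next like Tpbg (0.919), Timp2 (0.903), Kcnf1 (0.888) and Syt9 (0.886). Htr2a was most like Htr2c itself (0.853), then Gnl3l (0.852), the potassium channel gene Kcnd3 (0.847), Arhgap6 (0.842) and Syt9 (0.841). Without library 17, Gnl3l was the closest to Htr2a (0.813), and Htr2c stood in place 8 (0.775). Htr3a was closest to Cpne2 (0.879), to Nr2f2 (0.869), a transcription factor of caudal interneurons, and to Plagl1 (0.868), Dlk1 (0.860) and Cpne7 (0.842). These 5 values of Htr3a fell to between 0.699 and 0.762 without library 17.

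Htr5a was most like Nipal3 (0.815), and its list held Kcnf1 (0.789), Ankrd34b (0.790) and the nicotinic receptor subunit gene Chrnb2 (0.782). Its other entry was a transcript with no gene symbol in the table. Htr7 was most like Tmem35 and the proton pump subunit gene Atp6v1b2 (both 0.825), then Patj (0.816), Tmie (0.806) and Nnat (0.802). Kcnf1 stood in the lists of both Htr2c and Htr5a, and Syt9 in those of Htr2a and Htr2c. Neither overlap held without library 17. Kcnf1 was then in place 2 for Htr2c but 10 for Htr5a, and Syt9 in place 13 for Htr2a and 10 for Htr2c.

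Receptors outside the block had other neighbours. Htr1b was most like Gpr161 (0.80) and Arhgap12 (0.793), with St8sia1, Kcnab1 and the calcium pump gene Atp2b1 from 0.734 to 0.753. Without library 17, Arhgap12 was the closest to Htr1b (0.816) and Gpr161 stood in place 3. Htr1a was most like Kpna4 (0.792), Epha3 (0.790), Atp2b3 (0.779), Pcdh17 (0.776) and Pcdh19 (0.773), the last a pair of protocadherin adhesion genes. Without library 17, in which Htr1a was lowest, these genes stood in places 5, 4, 14, 26 and 12. Htr4 was most like Pdzd8 (0.784), followed by Cers6, Alg11, Arfgef1 and Unc5d from 0.722 to 0.732. Pdzd8 stayed the closest to Htr4 without library 17 (0.803), while Cers6, Alg11, Arfgef1 and Unc5d stood in places 16, 10, 14 and 24. Htr6 had no close neighbour: its best were Dyrk1b (0.623), Ezh1 (0.616), Rragd (0.610), Gse1 (0.597) and Tnks1bp1 (0.580).

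The rest of the serotonin pathway was read from fixed lists. Of the 4 other receptor genes, Htr5b had the highest median, 672.5 (525.5 to 928), and Htr3b, the partner subunit of Htr3a, was listed at 0 in 29 libraries and reached at most 2.02. Htr1f (33.3 to 99.5) and Htr2b (12.1 to 26.8) were measured at low values. As a description, Htr5b varied with Htr1b (r = 0.732), and Htr1f varied with Htr2c (r = 0.674).

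Of the 5 synthesis and packaging genes, all had a median of at least 10, from 22.2 for Tph2, the neuronal enzyme that starts serotonin synthesis, to 263.5 for the vesicular transporter gene Slc18a2. Of the 5 genes of uptake and breakdown 3 did, led by the monoamine oxidase gene Maob at 2954. The serotonin transporter gene Slc6a4 was lowest at 3.87. Among partners, the RNA-editing enzyme gene Adarb1 had the highest median (7859) and S100a10, whose product binds Htr1b, the lowest (463.8). All 9 genes of the Gi/o branch, 9 of the Gs branch and 6 of the Gq branch passed that minimum, from 236.9 for Kcnj5 to 11726 for Gnao1, 530 for Adcy8 to 27569 for Gnas, and 423 for Plcb3 to 22185 for Itpr1. Of the Gi/o branch, Gnai1 varied most closely with a receptor, at r = 0.878 with Htr2c. Library 17 was lowest for both genes. Of the 4 potassium channel genes in that list, subunits of the channels that Htr1a signals open, Kcnj3 had r = 0.640 with Htr1a and 0.633 with Htr4. With Htr1a, Kcnj6 had 0.473, Kcnj9 0.298 and Kcnj5 -0.141. Adarb1, whose product edits Htr2c transcripts, had r = -0.586 with Htr2c, while Adar, the other editing enzyme gene of the list, had r = 0.521. Library 17 was highest for Adarb1 and second lowest for Kcnj3. These r values of pathway genes, like those of single markers above, are descriptions over all 36 libraries, not tested and not given without library 17.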

How the data were processed

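Total RNA of rat hippocampus was sequenced, and the authors deposited a single table of gene-level normalised counts, a signal on a linear scale. Among tools, kallisto 0.43 and DESeq2 appear, per the submitters' processing notes, with no role or order. For the transcriptome, its build and the scaling formula no source used here gives a statement. The scaling differs between genes of a library, and whether it includes transcript length is not known, so read counts were not read back, and the depth is unknown. All 36 columns were assigned to the hippocampus set by their names and to no labelled group.

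Values were taken as log2(value + 1). The only filter was a median of at least 10, used for receptor pairs, similar genes, the principal components and the shares over all gene pairs or gene and list pairs. Correlations used permutation tests in Python 3.11.15 with numpy 2.4.6 (100000 resamples, two-sided, Benjamini-Hochberg within each family), tested on simulated data. Lists were averaged over genes with a row. Genes named are the 10 receptors, the highest and lowest of each pathway list, and the 5 most similar genes per receptor. Other named list genes were chosen after their values were seen, and some list genes are not reported here. The receptors and lists were chosen with earlier results of these data known. P-values treat the 36 animals as exchangeable, although they come from 6 groups. Alternatives were other pseudocounts (0.5 and 10), 2 rescalings, Spearman's rho and left-out libraries.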

Additional observations from a re-analysis of the deposited data

How the results depend on the processing

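Receptor medians moved by less than the spread between libraries under all 30 alternatives tried (0.993 to 1.03 times the value given). Over 50 alternatives, interquartile ranges were 0.34 to 1.13 times the value given. Both ends were those of Htr1d, with pseudocounts of 10 and 0.5. Counts of correlations past the threshold moved with left-out libraries and with the use of ranks. Without the 2 libraries farthest from the median, 9 receptor pairs passed in place of 15, and 9 positive and 3 negative list pairs in place of 16 and 19. Without library 17, 10 positive and 9 negative list pairs passed and 11 receptor pairs. Spearman's rho left 7 negative list pairs. Leaving out library 17 was chosen after seeing the data, as were leaving out library 30, which kept all 15 receptor pairs and all 35 list pairs, and the 2 regressions on marker lists. With the oligodendrocyte list regressed out, Htr1a with Htr2a had r = -0.0275 and Htr1a with Htr3a had r = -0.0012. The latter was also -0.0013 without the 2 farthest libraries. The causes were not tested. Pseudocounts of 0.5 and 10 and rescaling by median of ratios kept every receptor pair and list pair. Rescaling to equal totals kept 33 of the 35 list pairs. Depth per library is unknown, so no counting error can be given, for the scarce Htr1d included. No paired analysis was possible because the columns carry no replicate number of a labelled group.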
